A study of Homo sapiens with 4 samples.

Results

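The genes described here encode the proteins of the cytoplasmic ribosome. They were taken by symbol, as RPL, RPLP or RPS followed by a number and at most one suffix letter, together with RPSA, among rows with a coding transcript, and RPS27L and the RPS6K kinases were left out. Of the 4208 genes in the table, 63 were members, 37 of the large subunit (RPL and RPLP) and 26 of the small subunit (RPS and RPSA). The annotation holds 80 protein-coding genes that fit the same rule, and the other 17 (among them RPL3, RPL10, RPL13A, RPL19 and RPS18) were not analysed here. The suffix rule also took RPL39L, a paralog of RPL39 that is best known from testis.

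Nuclear RNA was prepared from A549 cells, an established human lung adenocarcinoma line, either unirradiated (UV−) or exposed to 254-nm ultraviolet light (40 J/m2) and then left to recover for 16 h (UV+). Both conditions used the same cells and nuclear extraction, RNA was depleted of ribosomal RNA, and strand-specific libraries were read as single reads of 100 nt. The table had 2 libraries per condition, described in the methods of the study as biological replicates. For each gene, reads were counted in the 500 nt upstream and the 500 nt downstream of a polyadenylation site (PAS), and the question asked by the design was how cleavage at the PAS responded to UV.

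Ribosomal proteins assemble with ribosomal RNA in the nucleolus, and the cell makes them in near-equal amounts from one gene each. Their mRNAs are abundant, short and encoded by compact genes, many of which carry small nucleolar RNAs in their introns. Most begin with a terminal oligopyrimidine (TOP) tract, a cytosine followed by an unbroken run of pyrimidines, through which their translation is tied to growth signals. The study took reads downstream of a PAS as RNA not cleaved there. The downstream/upstream ratio was its measure of uncleaved RNA relative to the RNA that precedes the site. Where the downstream window holds annotated exon, such reads need not be uncleaved RNA of that gene.

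The TOP tract is the feature these mRNAs are known for, and it is shown for members with the highest reads or the largest changes described below. Each line gives 30 nt of the RefSeq sequence on GRCh38.p14, from 10 nt before a transcription start to 20 nt from it, with the pyrimidine run that opens the transcript in capitals.
RPLP1, chr15:69452808-69452837, plus strand: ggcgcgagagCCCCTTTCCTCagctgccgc
RPLP2, chr11:809957-809986, plus strand: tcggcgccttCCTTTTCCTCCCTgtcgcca
RPL26, chr17:8383174-8383203, minus strand: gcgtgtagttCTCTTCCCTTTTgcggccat
RPS6, chr9:19380217-19380246, minus strand: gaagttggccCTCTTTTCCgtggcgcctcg
RPS23, chr5:82278335-82278364, minus strand: cggtgcttctCTCTTTCgctcaggcccgtg
RPS24, chr10:78033853-78033882, plus strand: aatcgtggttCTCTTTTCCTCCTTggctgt
A C at an annotated start followed by at least 4 more C or T on the transcribed strand was present in 38 of the 50 members with a RefSeq start (76.0%). The same run opened 6.91% of the 2896 other coding rows with a start and 4.07% of all 35116 starts. The run is a match of letters and not a tested element.

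The other sequence that bears on the measurement is the end of the upstream window, where the poly(A) signal lies. The last 30 nt before the PAS are printed for members whose ratio or upstream window stood out, in the sense direction and in the hg19 build of the table, with the hexamer AATAAA or ATTAAA in capitals.
RPS21, chr20:60963547-60963576, plus strand: tatttgtcataAATAAAtaatgaaaaccta
RPS28, chr19:8387251-8387280, plus strand: tttaAATAAAgcgtttgtgtttcaagttaa
RPLP1, chr15:69747855-69747884, plus strand: tataacatgttcAATAAAaagctgaacttt
RPL26, chr17:8280834-8280863, minus strand: ctttgATTAAAacttgaaacaaagagcctg
RPL27A, chr11:8711390-8711419, plus strand: aaaagatgtttttaacaaaaatgtaactga
RPS24, chr10:79816542-79816571, plus strand: gctAATAAAtgttatatactgtttaaggta
RPL15, chr3:23965158-23965187, plus strand: catctgtagAATAAAttcttagaagtagaa
RPL27A carries neither hexamer and so has no capitals. In the last 40 nt before the PAS, AATAAA was found on the sense strand in 45 of 63 members (71.4%) and ATTAAA without it in 10 (15.9%), against 57.6% and 14.9% of the 3723 other coding rows. The small-subunit genes had AATAAA in 22 of 26 and ATTAAA in 1, whereas the large-subunit genes had AATAAA in 23 of 37 and ATTAAA in 9.

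Reads of the ribosomal protein genes made up a larger part of the table after UV. Upstream of the PAS they were 2.79% and 2.96% of all upstream reads in the UV− libraries and 5.56% and 5.23% in the UV+ libraries. Downstream they were 1.72% and 1.65% in UV− and 4.70% and 4.35% in UV+. The UV+ libraries therefore lay above both UV− libraries in either window. RPLP1 alone supplied 12.9% and 11.9% of the members' upstream reads without UV and 19.1% and 15.4% in UV+, but the sum without it was also higher in UV+ (17620 and 16690 normalized reads) than in UV− (8892 and 9708). An exact permutation test of 2 against 2 libraries cannot fall below p = 0.33, so no p is given for these shares. The libraries held 262657 to 481798 upstream and 50814 to 92566 downstream reads, and the second UV+ library had the most rows at 0 (240 upstream and 498 downstream).

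In the upstream window, 38 of the 63 members were higher in UV+ and 0 were lower at an adjusted p under 0.05, where 11.7% of all 4208 rows were called higher and 20.7% lower (limma on log2 normalized reads with a pseudocount of 1). At an unadjusted p under 0.05, 48 members were higher and again 0 lower. The calls comprised 21 of 37 large-subunit and 17 of 26 small-subunit genes. The median log2 fold change was 0.99 over the members, 0.86 over the large-subunit and 1.12 over the small-subunit genes, beside −0.24 over all rows. Both UV+ libraries exceeded both UV− libraries in 56 members, compared with 28.1% of all rows, and lay below both in 1, compared with 41.3%. Libraries were scaled to each other, so that each change is relative to the other rows, and in bulk RNA a change in the mixture of cells and a change in RNA per cell cannot be told apart. The calls depended on the number of libraries: 0 members were called without either UV− library, 15 without the first UV+ library and 21 without the second, while the median log2 fold change stayed between 0.86 and 1.12.

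In the downstream window, 31 members were higher and 0 lower, against 11.7% of all rows called higher and 9.41% lower. Of these 31, 18 belonged to the large and 13 to the small subunit. The median log2 fold change was 1.48 over the members and 0.24 over all rows, with 1.58 for the large and 1.43 for the small subunit. UV+ lay above UV− without overlap in 48 members and below it in 1, where 36.8% and 30.4% of all rows did so. Leaving out any 1 library reduced the calls to 0 without either UV− library and to 1 without either UV+ library. The median then ranged from 1.47 to 1.58.

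The table was restricted to genes with enough reads, and a window that reached that minimum in UV+ alone had to differ. Taking 10 reads summed over a condition as the limit, RPL15, RPS3, RPS24 and RPS28 reached it upstream in UV+ only, and 3 of these 4 were among the calls, compared with 71 of 278 over all rows. Downstream this held for 15 members, 4 of them called, and for 1206 of all rows, 252 of them called higher. Among members with 10 reads in both conditions, 35 of 59 were called higher upstream with a median of 0.92, and 27 of 47 downstream with a median of 1.44. Over all rows the same limit left 421 of 3489 called higher upstream and 241 of 2148 downstream. RPL39L was the 1 member that reached 10 downstream reads in UV− only.

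**Figure D1:**
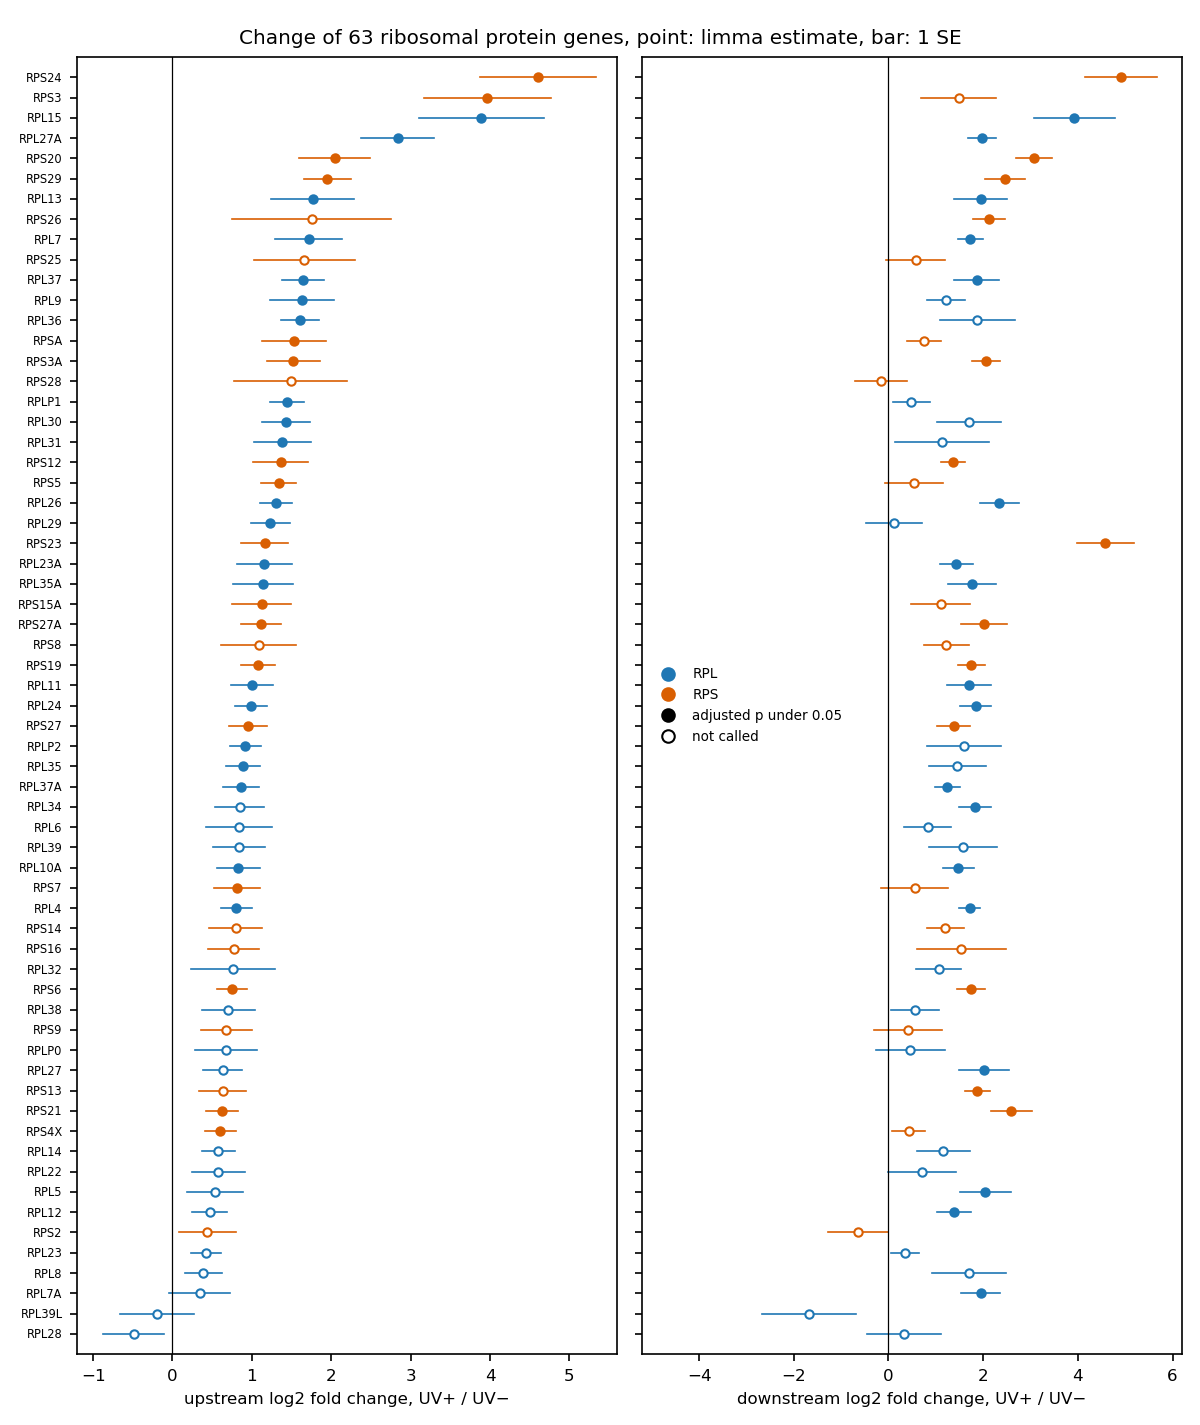
Log2 fold change between UV+ and UV− of each of the 63 genes in the upstream (left) and downstream (right) window, ordered by the upstream value. Points are limma estimates, bars are 1 SE, filled points passed an adjusted p under 0.05, and colours separate large-subunit (RPL) from small-subunit (RPS) genes; 61 genes lie right of 0 upstream and 60 downstream, and RPS24, RPS3 and RPL15 lie farthest right upstream.

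Of the proteins of the stalk, which recruits translation factors to the large subunit, RPLP1 and RPLP2 had the highest upstream reads of all members without UV. RPLP1 (chr15:69745159-69747884 in hg19) gave 1314 and 1306 normalized upstream reads without UV and 4175 and 3039 in UV+. RPLP2 gave 1283 and 1156 in UV− and 2511 and 2110 in UV+. Both genes were separated by condition in every library, with log2 fold changes of 1.44 (SE 0.21, n = 2 per condition, adjusted p = 0.0003) for RPLP1 and 0.92 (SE 0.20, adjusted p = 0.0039) for RPLP2. RPLP0, the protein that anchors these to the ribosome, was read at far lower upstream levels of 19.5 and 32.8 in UV− and 45.5 and 36.8 in UV+. A stretch of its upstream window also occurs elsewhere in the genome, so this level is uncertain. The conditions of RPLP0 did not overlap, but its difference of 0.67 on the log2 scale did not pass the test (SE 0.39, adjusted p = 0.20). Downstream, RPLP1 was read at 29.2 and 18.9 in UV− and at 38.2 and 29.02 in UV+, where the libraries overlapped and the test was not passed (log2 fold change 0.49, adjusted p = 0.37).

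Among the proteins that line the exit tunnel of the large subunit or lie at its mouth, RPL4 had the most downstream reads of any member. It gave 114 and 125 normalized downstream reads in UV− and 414 and 374 in UV+, which passed the test (log2 fold change 1.71, SE 0.22, adjusted p = 0.0016). Its upstream reads were 810 and 805 in UV− and 1544 and 1292 in UV+ (log2 fold change 0.81, SE 0.19, adjusted p = 0.0076). The RPL4 downstream window was annotated exon on the gene's strand over all 500 nt. RPL26, which has also been described as a binder of p53 mRNA, gave 566 and 692 upstream reads in unirradiated cells and 1618 and 1485 in UV+, and 8.35 and 8.20 downstream reads in UV− and 48.8 and 43.5 in UV+. No library overlapped with the other condition in either window of RPL26, and both changes passed the test, upstream by 1.31 (SE 0.20, adjusted p = 0.00037) and downstream by 2.34 (SE 0.41, adjusted p = 0.0068) on the log2 scale.

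Other large-subunit proteins with small p-values were RPL36, RPL37 and RPL27A. RPL37, a zinc-binding protein, was read upstream at 50.1 and 41.0 in UV− and at 140 and 148 in UV+ (log2 fold change 1.64, SE 0.27, adjusted p = 0.0006). RPL36 gave 113 and 127 upstream reads without UV and 445 and 304 in UV+ (log2 fold change 1.61, SE 0.24, adjusted p = 0.00033). Both genes were separated by condition, with mean reads 3.16-fold higher for RPL37 and 3.12-fold higher for RPL36. RPL27A differed from them in that its downstream window held more reads than its upstream window in every library. Upstream it gave 6.96 and 8.20 reads in UV− and 82.9 and 43.5 in UV+, and downstream 29.2 and 30.4 in UV− and 105 and 138.3 in UV+. Both windows passed the test, with log2 fold changes of 2.84 (SE 0.46, adjusted p = 0.00062) upstream and 1.98 (SE 0.29, adjusted p = 0.0033) downstream.

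RPL5 and RPL11 form a particle with 5S ribosomal RNA that is known to bind MDM2 when ribosome assembly is disturbed. RPL11 gave 55.7 and 63.98 upstream reads without UV and 115 and 126 in UV+, and passed the test (log2 fold change 1.00, SE 0.26, adjusted p = 0.011). RPL5 gave 43.1 and 102 upstream reads without UV and 104 and 89.96 in UV+, so that its conditions overlapped and the test was not passed (log2 fold change 0.54, SE 0.36, adjusted p = 0.26). Downstream, both were higher in UV+: RPL5 went from 4.17 and 12.3 to 30.9 and 35.8 (log2 fold change 2.05, SE 0.54, adjusted p = 0.027) and RPL11 from 11.1 and 6.56 to 29.3 and 31.0 (log2 fold change 1.70, SE 0.47, adjusted p = 0.030).

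Of the small-subunit proteins, RPS6, the substrate of the S6 kinases, had the most upstream reads. It gave 1060 and 1117 in UV− and 1865 and 1799 in UV+ (log2 fold change 0.75, SE 0.19, adjusted p = 0.0096), and downstream 43.1 and 41.0 in UV− and 181 and 113 in UV+ (log2 fold change 1.74, SE 0.30, adjusted p = 0.0064). Both windows were separated by condition. RPS3A was higher in both windows as well, upstream from 29.2 and 22.1 to 82.1 and 68.7 and downstream from 25.05 and 25.4 to 105 and 113, with a downstream log2 fold change of 2.07 (SE 0.29 and adjusted p = 0.0026). RPS13 differed in that only its downstream window passed the test. Its upstream reads were 47.3 and 47.6 in UV− and 68.3 and 80.3 in UV+ (log2 fold change 0.63, SE 0.29, adjusted p = 0.11), whereas its downstream reads were 43.1 and 41.0 in UV− and 161 and 154 in UV+ (log2 fold change 1.88, SE 0.26, adjusted p = 0.0024). The RPS13 ratio itself was not called (log2 fold change 1.25, SE 0.66, unadjusted p = 0.10), so that unequal change of its windows was not shown by this test. Its unadjusted p was under 0.05 in 4 of 10 alternative fits to all libraries. The adjusted p of that ratio was 0.27 with edgeR and 0.22 with DESeq2.

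RPS27A, which is made as a fusion to ubiquitin, was read upstream at 106 and 116 in UV− and at 298 and 196 in UV+ (log2 fold change 1.12, SE 0.25, adjusted p = 0.005). Its downstream reads were 5.57 and 12.3 in UV− and 43.9 and 31.0 in UV+ (log2 fold change 2.02, SE 0.49, adjusted p = 0.022). Neither window of RPS27A overlapped between conditions. RPSA, also known as the laminin receptor precursor, was higher upstream, from 18.1 and 42.7 to 67.5 and 101 (log2 fold change 1.53, SE 0.40, adjusted p = 0.011), while its downstream values of 32.01 and 24.6 in UV− and 39.0 and 58.0 in UV+ did not pass (adjusted p = 0.15).

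The genes with the fewest upstream reads without UV were RPS24, RPS3 and RPL15. RPS24, mutated in Diamond-Blackfan anemia (chr10:79793518-79816571), gave 1 upstream read in the first UV− library and 0 in the second, or 1.39 and 0 normalized reads, and 30.9 and 43.5 in UV+. Its ratio of summed reads was 71.1 with an exact 95% interval of 12.4 to 2839.8, which covers counting error only. Downstream it had 0 reads in UV− and 28.5 and 30.0 normalized reads in UV+, at least 18.8-fold higher against a floor of 3 reads over both UV− libraries. RPL15 gave 2.78 and 0 upstream reads without UV and 23.6 and 32.9 in UV+, a ratio of 27 (interval 7.16 to 227.5). RPS3, which sits at the mRNA entry of the small subunit, gave 1.39 and 0 in UV− and 16.3 and 32.9 in UV+, a ratio of 46.2 (interval 7.95 to 1859.2). All 3 upstream changes passed the test, with log2 fold changes of 4.61 (SE 0.73) for RPS24, 3.97 (SE 0.80) for RPS3 and 3.89 (SE 0.79) for RPL15, and these genes entered the table through UV+ alone.

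These 3 genes shared a place of the window that most members did not have. Their table PAS lay beyond the end of the canonical transcript in the GENCODE annotation, and 0 nt of the upstream window belonged to exons of that transcript. The same was true of RPL13, RPL31, RPL34, RPS20 and RPS29, so that 8 of 63 members (12.7%) were read past the usual end of their mRNA, compared with 1.72% of 3481 other coding rows. The distance from the canonical end to the PAS used was between 2287 and 16116 nt. In the other 55 members, 66 to 500 nt of the upstream window was canonical exon. Of the 8 genes, 7 were higher upstream with a median log2 fold change of 2.00, and 6 were higher downstream with a median of 2.20. RPS24, RPS3 and RPL15 reached 10 upstream reads in UV+ only and so had to differ. Downstream this held for RPL13, RPL15, RPL31, RPS24 and RPS3. Both medians include these genes. Without them, 31 of 55 members were higher upstream (56.4%) with a median of 0.88, and 25 were higher downstream with a median of 1.44. In the 60 other coding rows with windows of this kind, 10 were higher and 3 lower upstream, with a median of 0.17, and 16 were higher and 5 lower downstream, with a median of 0.73. Counts of so few genes were not tested against each other. Reads of these windows need not come from the ribosomal protein mRNA, and their source was not tested.

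RPS29 and RPS20 belonged to this set and had higher values than RPS24. RPS29 (small, zinc-binding) gave 32.01 and 26.2 upstream reads without UV and 120 and 109 in UV+ (log2 fold change 1.95, SE 0.30, adjusted p = 0.00038). The downstream reads of RPS29 were 6.96 and 9.02 in UV− and 41.5 and 56.1 in UV+ (log2 fold change 2.46, SE 0.43, adjusted p = 0.0064). RPS20 had the smallest downstream p of all members, from 8.35 and 7.38 in UV− to 72.4 and 75.5 in UV+ (log2 fold change 3.08, SE 0.38, adjusted p = 0.0014). The libraries of RPS29 and RPS20 were separated by condition in both windows.

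**Figure D2:**
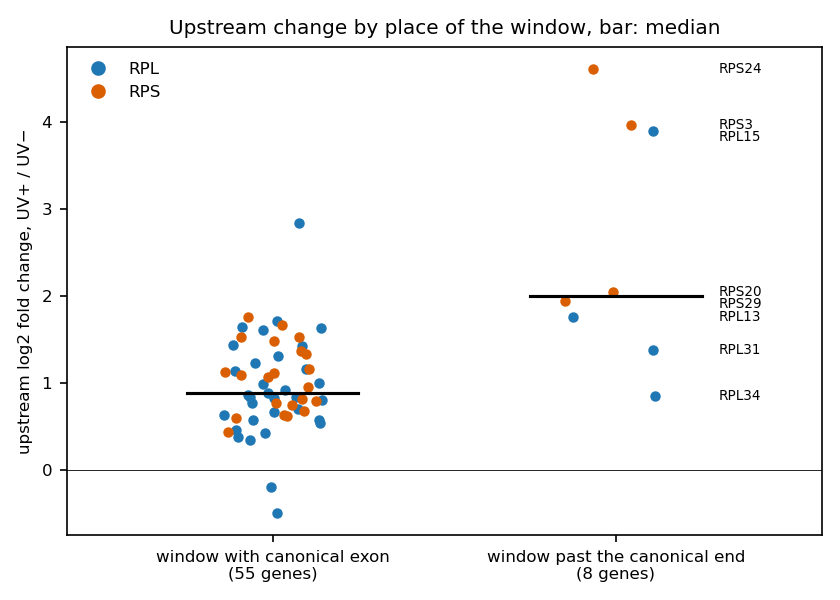
Upstream log2 fold change of the 55 members whose upstream window holds exon of the canonical transcript (left) and of the 8 whose window lies past its end (right, named). Points are genes, coloured by subunit and spread sideways for sight only, and bars are medians, at 0.88 on the left and 2.00 on the right. On the right, RPS24, RPS3 and RPL15 reached 10 upstream reads in UV+ only and so had to differ.

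The downstream/upstream ratio asked whether downstream RNA, taken as uncleaved, changed relative to the upstream RNA. At an unadjusted p under 0.05, the threshold of the study's methods, 2 members had a higher ratio in UV+ and 2 a lower one, where 10.9% of all rows were higher and 2.69% lower. All 4 were small-subunit genes. At an adjusted p under 0.05, limma called 0 members and 0.0% of all rows. The median log2 fold change of the ratio was 0.31 over the members and 0.38 over all rows. Both UV+ libraries lay above both UV− libraries in 27 members and below them in 7, where 32.6% and 12.9% of all rows did so. These counts depended on the model of the variance and on which libraries were used. The shares of all rows given above belong to the limma fit described first, so the member counts that follow have none beside them. The median log2 fold change of the ratio was 0.487 over the members and 0.405 over all rows with edgeR. With DESeq2 these medians were 0.537 and 0.416. edgeR called 9 members higher and 1 lower at an unadjusted p under 0.05, DESeq2 8 and 0, and limma with its variance trend on mean reads 9 and 2. Without a library, between 1 and 2 were higher and between 0 and 4 lower (4 without the first UV+ library).

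RPS23, a protein of the decoding centre, had the largest change of the ratio in either direction. It was read downstream at 2.78 and 0.82 in UV− (2 reads and 1 read) and at 89.4 and 42.6 in UV+ (110 and 44 reads), a ratio of summed reads of 43.9 with an exact 95% counting interval of 14.8 to 215.4. Its upstream reads were 69.6 and 51.7 in UV− and 171 and 107 in UV+. The log2 ratio was −4.22 and −4.85 in UV− and −0.93 and −1.31 in UV+, without overlap. The downstream window was among the 15 that reached 10 reads in UV+ only and so had to differ. The log2 ratio differed by 3.42 (SE 0.66, unadjusted p = 0.0014, adjusted p = 0.29). With the trend on mean reads its adjusted p was 0.042, with edgeR 0.0098 and with DESeq2 0.011. The downstream window of RPS23, chr5:81568639-81569138, held 0 nt of annotated exon on the gene's strand.

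RPS21 had the other higher ratio. Its downstream reads were 11.1 and 5.74 in UV− and 55.3 and 52.2 in UV+, and its upstream reads 568 and 726 in UV− and 947 and 1035 in UV+. The log2 ratio differed by 1.97 (SE 0.71, unadjusted p = 0.029, adjusted p = 0.33). With the trend on mean reads its adjusted p was 0.11, with edgeR 0.075 and with DESeq2 0.02. Its unadjusted p was under 0.05 in 10 of 10 alternative fits to all libraries. Without 1 library the difference ranged from 1.37 to 2.57. RPS28, which lies near the mRNA exit, had a lower ratio. Its downstream reads were nearly level, at 11.1 and 10.7 in UV− and 9.76 and 9.67 in UV+, while its upstream reads were 4.17 and 2.46 in UV− and 12.2 and 9.67 in UV+ (ratio change −1.64, SE 0.68, unadjusted p = 0.047). RPS3 was the other gene with a lower ratio (−2.48, SE 0.88, unadjusted p = 0.026), with downstream reads of 1.39 and 3.28 in UV− and 6.51 and 9.67 in UV+. Both lower ratios rested on few reads, and with a mean of at least 10 reads required in both windows 0 members had a lower ratio. The upstream windows of RPS28 and RPS3 were among the 4 that reached 10 reads in UV+ only and so had to differ. The downstream window of RPS3 was likewise among the 15 of that kind.

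**Figure D3:**
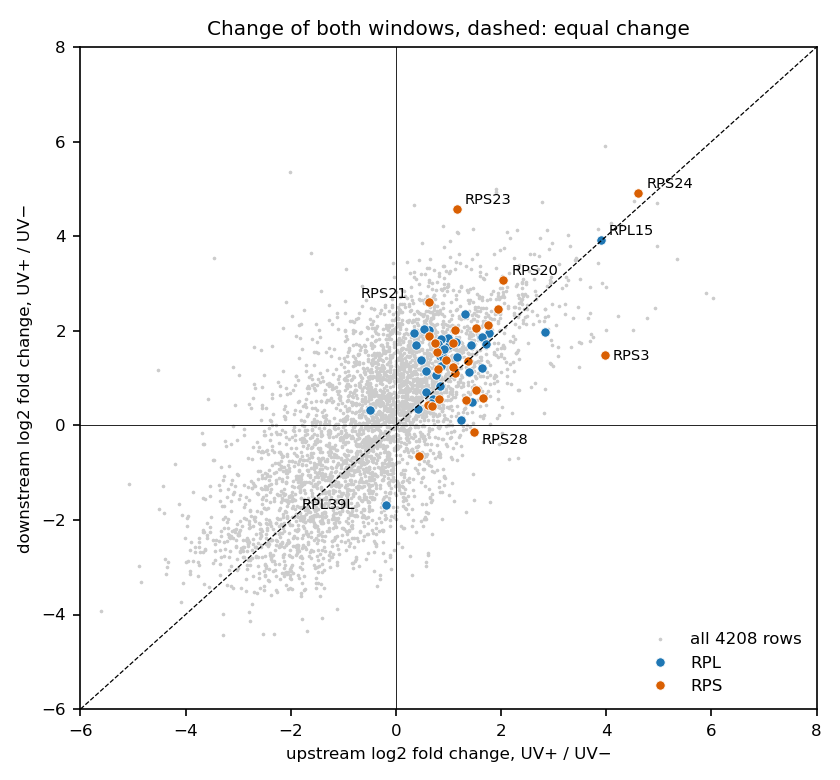
Downstream against upstream log2 fold change between UV+ and UV− of all 4208 rows (grey) and of the large-subunit (blue) and small-subunit (orange) genes. The dashed line marks equal change; RPS23 and RPS21 lie above it, RPS3 and RPS28 below it, and most members have positive values on both axes.

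Summed over genes, downstream reads of the large subunit were 10.3% and 8.51% of its upstream reads without UV and 12.3% and 13.6% in UV+. Those of the small subunit were 15.1% and 12.8% in UV− and 25.6% and 21.9% in UV+. The UV+ libraries exceeded the UV− libraries in both subunits, and over all rows the corresponding values were 19.3% and 17.9% in UV− and 19.2% and 19.6% in UV+. Taken gene by gene, the median log2 ratio of the small subunit was −1.12 and −1.49 in UV− and −1.06 and −1.29 in UV+, so that its conditions overlapped, and that of the large subunit was −2.50 and −2.76 in UV− and −1.94 and −2.03 in UV+, without overlap. The difference between the subunits was not tested, since genes are not replicates.

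RPL28, which was named after its values were seen, and RPL39L were the members with a negative upstream value. RPL28 gave 43.1 and 30.4 upstream reads without UV and 26.8 and 24.2 in UV+, below both UV− libraries but short of the threshold (log2 fold change −0.49, SE 0.38, adjusted p = 0.34). RPL39L gave 26.4 and 16.4 in UV− and 18.7 and 17.4 in UV+, with overlap (log2 fold change −0.20, SE 0.47, adjusted p = 0.77), and 11.1 and 3.28 downstream reads in UV− and 4.07 and 0 in UV+ (log2 fold change −1.68, SE 0.99, adjusted p = 0.23). RPL39L is also the longest large-subunit gene at 18523 nt.

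Level and change were related across the members as a description of these libraries, which share depth and scaling. Spearman's rho was −0.48 between upstream level in UV− and upstream log2 fold change over the 63 genes, where the level is also part of the fold change, and 0.37 between the upstream and downstream fold changes. It was 0.10 for gene length, 0.01 for the number of small nucleolar RNAs and 0.18 for the number of annotated pseudogenes. Small nucleolar RNAs lay inside 22 members (34.9%, against 2.58% of other coding rows), and 13 of these 22 were higher upstream with a median of 1.00, next to 25 of 41 with a median of 0.99 among the rest. Members with a TOP start were higher upstream in 24 of 38 and those without one in 7 of 12.

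Ribosomal protein genes have many processed copies, and 62 of the 63 had an annotated pseudogene. In 15 members (23.8%, against 5.1% of other coding rows) a 100-nt stretch of the upstream window, the length of a read, also occurred elsewhere in the genome, and reads of such a stretch cannot be placed on 1 gene. These were RPL4, RPL6, RPL7A, RPL14, RPL29, RPL39, RPLP0, RPS2, RPS3A, RPS7, RPS15A, RPS25, RPS26, RPS28 and RPSA, whose upstream levels are therefore uncertain. Without them, 32 of 48 members were higher upstream and 27 downstream. In 22 members (34.9%, against 29.4% of other coding rows), 250 nt or more of the downstream window was annotated exon on the gene's strand. RPLP1, RPL4, RPS6 and RPS20 were among them, and exons of the same gene were not told from those of other genes. Without these 22 members, 23 of 41 were higher upstream and 19 downstream.

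The members were compact genes, with a median length of 4689 nt against 22630 nt for the other coding rows. Among the 830 other coding rows between 2432 and 9912 nt, the 10th and 90th percentile of the members' lengths, 173 were higher and 42 lower upstream with a median log2 fold change of 0.42, and 168 were higher and 15 lower downstream with a median of 0.91. The upstream median of the members was thus higher than that of rows of like length, by counts that were not tested against each other.

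Other genes of the translation machinery were read from fixed lists. Beside them, 11.7% of all rows were called higher and 20.7% lower upstream, and 11.7% and 9.41% downstream. The other coding rows of like length to the members had median log2 fold changes of 0.42 upstream and 0.91 downstream. The lists were not tested against either. Of 32 further mRNAs of translation known for TOP tracts, 22 had a row, and 8 were higher and 2 lower upstream (median 0.34). FAU, which encodes RPS30 fused to a ubiquitin-like protein, was among the higher, from 79.3 and 90.2 in UV− to 216 and 308 in UV+ (log2 fold change 1.59, adjusted p = 0.00045). GNB2L1, which encodes the ribosomal scaffold RACK1, was read upstream at 769.5 and 886 in UV− and at 725 and 851 in UV+, with overlap (log2 fold change −0.07, adjusted p = 0.81). The lower ones were TPT1 and EIF3A. EIF3A, with 0 upstream reads in both UV+ libraries, reached 10 upstream reads in UV− only and so had to differ. Of 104 ribosome biogenesis factors, 66 had a row, of which 21 were higher and 3 lower upstream (median 0.42) and 17 higher and 0 lower downstream (median 1.14). IMP3, of the complex that processes the small-subunit RNA, was higher upstream from 156 and 180.5 to 452 and 510 (log2 fold change 1.51, adjusted p = 0.00021). UTP20 was lower, from 43.1 and 29.5 to 3.25 and 3.87 (log2 fold change −3.01, adjusted p = 0.0016). UTP20 reached 10 upstream reads in UV− only and so had to differ. In the 5 paralogs left out of the members, among them RPS27L and RPL22L1, 3 were higher upstream and 2 downstream.

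Abundant cytoplasmic mRNAs outside the ribosome also took a larger share of the nuclear libraries after UV. The 27 listed genes with a row, among them GAPDH and FTL, made up 7.90% and 7.96% of upstream reads without UV and 11.7% and 11.4% in UV+, with 8 of 27 higher and 0 lower and a median log2 fold change of 0.50. Their downstream share moved from 0.88% and 0.83% to 1.03% and 0.96%, with 1 higher and 0 lower. Over all rows, 11.7% were called higher and 20.7% lower upstream, and 11.7% and 9.41% downstream. Of 11 noncoding RNAs with a row that were listed as nuclear-retained, 4 were higher upstream and 0 lower (median 0.57). Most of the 11 were small nucleolar RNA host genes (SNHG genes and GAS5), for which nuclear retention was not tested. The 4 were SNHG5, SNHG12, SNHG15 and SNHG16, whereas MALAT1 (log2 fold change −0.63) and TUG1 (0.48) were not called. The part of carried-over cytoplasmic RNA in the upstream change of the ribosomal protein genes was not tested. Of 12 markers of A549 or epithelial cells, 7 had a row, with 0 higher and 1 lower upstream and 0 higher and 2 lower downstream. KRT18, a keratin, fell upstream from 637.3 and 799.0 to 209.8 and 290.2 (adjusted p = 0.0003), and ALDH1A1, an aldehyde dehydrogenase, fell downstream by 3.17 on the log2 scale (adjusted p = 0.00011). Of 13 markers of fibroblasts, immune cells and endothelium, 1 had a row. This was CD68, a lysosomal protein, which rose upstream by 0.92 (adjusted p = 0.023) and downstream by 3.11 (adjusted p = 0.039). The downstream window of CD68 held 0 and 8 reads in UV− and 21 and 31 in UV+. That window reached the minimum of reads in UV+ only and so had to differ. The part of other cells in the upstream change was not tested.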

How the data were processed

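Members, gene lists and tests were chosen with earlier results of these data known. Per the labels and the study's methods, the authors used cutadapt for trimming, TopHat2 for alignment to hg19, SAMtools for filtering and featureCounts in R 3.4.0 for counting, with a mapping quality of at least 20 and at least 10 reads in both windows in either condition. The deposited signal values are reads per window divided by 1 size factor per library. Whole reads were recovered by undoing it (100% of values within 1e-06 of a whole read). Columns of the authors' own comparison (mean, log2 fold change, error, statistic, p-values) were not used.

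All 4208 rows were fitted, the 6 rows whose name or position cells were damaged included without a name. The main test was limma 3.58.1 (R 4.3.3, eBayes with trend) on log2(value + 1), Benjamini-Hochberg adjusted over all rows, and the fold changes, on that scale, understate changes of low genes. The ratio was the difference of the log2 values of both windows in each library. Alternatives were edgeR 4.0.16 and DESeq2 1.42.0 on recovered reads, other pseudocounts, a mean of at least 10, other scalings, no variance trend, a replicate block and each library left out. A variance trend on mean reads and subsets of members by window content were added after seeing the data. The code was tested on simulated data.

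Members given in every library were, for each measure and direction, the 6 of smallest p among calls without overlap and with a mean of at least 10, the 3 highest and 3 lowest upstream in UV−, and RPLP0, RPLP1, RPLP2, RPL5, RPL11, RPSA, RPS3, RPS6, RPS27A and RPL39L. RPL28 and other members named to complete a count, and FAU, GNB2L1, IMP3, UTP20, TPT1 and EIF3A, were chosen after their values were seen. Windows, exons and sequence came from GRCh37 with GENCODE 44, the build of the table, and starts from RefSeq on GRCh38.p14, with Python 3.11.15, pandas 2.3.3, numpy 2.4.6, scipy 1.17.1 and matplotlib 3.10.9.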

Additional observations from a re-analysis of the deposited data

How the results depend on the processing

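With 2 libraries per condition, the calls rest on borrowing the variance across rows. Without the variance trend, limma called 11 members higher upstream (6 of the large and 5 of the small subunit) and 8 downstream (2 and 6), and 1 large-subunit gene had a higher ratio. Leaving out 1 library gave 0 to 21 members higher upstream (0 to 10 of the large and 0 to 11 of the small subunit), 0 to 1 downstream (0 to 0 and 0 to 1), 1 to 2 with a higher ratio (0 to 0 and 1 to 2) and 0 to 4 with a lower one (0 to 2 and 0 to 2). The upstream share difference of 2.52 percentage points was then 2.36 to 2.69, and 2.94 without RPPH1 in the total.

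The number of members with a higher ratio, 2 in the fit as described, was 5 with a pseudocount of 5 (2 of the large subunit), 5 with a mean of at least 10 (3), 9 with edgeR (5 and 4), 8 with DESeq2 (4 and 4) and 9 with the trend on mean reads (5 and 4). The number with a lower ratio, also 2, was 0 with a mean of at least 10, 1 with edgeR and 0 with DESeq2, all in the small subunit. It was 2 of the large and 1 of the small subunit with a pseudocount of 5, and 1 and 1 with the trend on mean reads. None of these counts has the share of all rows in the same fit beside it. Among members with under 250 nt of exon downstream 4.88% had a higher ratio, and 1.82% of those with canonical exon upstream and 2.08% of those without a copied stretch had a lower one, beside 3.17% over all members.

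The labels tie libraries of the 2 conditions by replicate number alone, and the titles number the UV+ libraries differently. Across all rows, the difference between replicates 1 and 2 in UV− correlated with that in UV+ at 0.00042 upstream and 0.026 downstream. A low correlation cannot show that the libraries were unpaired. With a replicate block, 46 members were higher upstream, 34 downstream, 2 had a higher ratio and 1, in the small subunit, a lower one.

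Of the values of single members under the alternatives, 806 kept their direction and their side of the threshold, 152 kept the direction and lost the call, 20 gained one and 13 changed sign, none of them called on either side. With a pseudocount of 5 the ratio difference was −0.64 for RPL36, −0.11 for RPS24, −0.079 for RPLP2 and −0.087 for RPL15, each positive in the fit as described. Without 1 library, the upstream value ranged from −0.071 to 1.15 for RPL5 and from −0.53 to 0.13 for RPL39L, and the ratio difference from −0.20 to 0.73 for RPL36, −0.32 to 0.94 for RPS24, −0.38 to 0.81 for RPL37, −0.99 to 1.06 for RPL15 and −1.02 to 0.60 for RPLP0. The upstream and downstream counts were within 1.5 times the main count with the other pseudocounts, the filter, both scalings, edgeR and DESeq2. The median SE of the ratio over the members was 0.70. In the fit as described, the variance trend of the ratio ran on the mean log2 ratio and not on reads. RPL4, a gene with many reads, had a ratio SE of 0.64 in that fit and 0.27 with the trend on mean reads.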
